A study of Mus musculus with 10 samples.

Results

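Potassium channels are membrane proteins that let potassium leave or enter a cell, and in neurons they set the resting potential, the shape of the action potential and the pattern of firing. The Kcn gene symbols cover voltage-gated pore subunits, silent subunits that form channels only together with pore subunits of another family, auxiliary proteins that travel with the pore, inward rectifiers, leak channels with tandem pore domains, and channels opened by calcium or sodium. In cerebral cortex, A-type and delayed rectifier channels time repolarisation, M-current channels curb repetitive firing, and G-protein-gated inward rectifiers carry slow inhibition. The genes described here are all rows of the deposited gene table whose symbol starts with Kcn, followed by lower-case subfamily letters and a number. They were 79 of 14276 genes and fell into 20 subfamilies. Each gene of the table reached 0.582 CPM or more in 5 or more libraries. A further 14 protein-coding Kcn genes of the annotation were not analysed here.

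RNA was measured in cerebral cortex of C57BL/6 mice aged 3 months by sequencing total RNA depleted of ribosomal RNA. The 5 libraries labelled BrapcKO carried 3 flox/ko Cre+ genotypes (04, 07 and 21) and 2 flox/flox Cre+ genotypes (05 and 06). The 5 Control libraries carried 3 flox/wt Cre- genotypes (08, 22 and 23) and 2 flox/flox Cre- genotypes (09 and 24). Brap encodes a ubiquitin ligase that restrains signalling from Ras to MAP kinases; flox marks an allele that Cre recombinase can delete, ko one already deleted and wt the unmodified allele. The labels do not name the Cre driver, and so not the cells that lose Brap. Since all knockout libraries carried Cre and no Control library did, Cre itself and the loss of Brap cannot be told apart. A ko allele was in the 3 flox/ko Cre+ libraries and in no Control library. In these 3 its part cannot be told apart from that of deletion by Cre. The labels do not say that each library is a separate animal, so p-values measure only the spread between these libraries, which may be partly technical. The libraries of each group differed in genotype, so they did not all come from the same animal.

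Total counts ran from 17188901 to 28991874 per library. The titles carry a code, B1 (BrapcKO 04 to 07, Control 08 and 09) or B2 (BrapcKO 21, Control 22 to 24), of unstated meaning, and it was a term of the comparison throughout. Y-linked genes were high in BrapcKO 05, 06, 07 and 21 and in Control 23, so sex, read from these genes alone, was uneven between the groups. Counts of Brap itself were not lower in the knockout: they were 109.9, 89, 101, 110.5 and 109 CPM in libraries labelled BrapcKO, against 88.1, 94.3, 76.7, 84.2 and 98.6 CPM in Control, with a log2 difference of 0.23 and adjusted p 0.18. The labels do not name the deleted exons, and a count over the whole gene also holds reads from outside them, so Brap counts do not check the labels, on which each direction given here depends. Values of single libraries are listed in the order BrapcKO 04, 05, 06, 07 and 21 and Control 08, 09, 22, 23 and 24. They are in CPM, the standard scaling of a count to its library total, here with TMM factors.

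Promoter windows of 4 genes on which the results turn are shown first, each from 250 bases before to 50 bases after the annotated transcript start, as RefSeq gives them, 5′ to 3′ on the gene's own strand. Kcnt2 and Kcnh5 are the members with the 2 largest called falls, and Kcnj3 and Kcnj9 encode 2 subunits of the same channel family that fell. The windows were searched on both strands for the cAMP response element core TGACG, the AP-1 site TGAGTCA and the TATA box TATAAA, none of which contains another; capitals mark a match on either strand.
Kcnt2 promoter, GRCm38.p6 chr1:140245468-140245767, plus strand: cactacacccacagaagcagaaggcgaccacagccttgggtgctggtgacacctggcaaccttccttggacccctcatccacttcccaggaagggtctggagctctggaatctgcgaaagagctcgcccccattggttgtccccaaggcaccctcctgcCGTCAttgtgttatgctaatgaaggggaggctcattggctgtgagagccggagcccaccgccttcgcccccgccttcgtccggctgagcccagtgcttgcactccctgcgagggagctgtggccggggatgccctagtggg
Kcnh5 promoter, GRCm38.p6 chr12:75177283-75177582, minus strand: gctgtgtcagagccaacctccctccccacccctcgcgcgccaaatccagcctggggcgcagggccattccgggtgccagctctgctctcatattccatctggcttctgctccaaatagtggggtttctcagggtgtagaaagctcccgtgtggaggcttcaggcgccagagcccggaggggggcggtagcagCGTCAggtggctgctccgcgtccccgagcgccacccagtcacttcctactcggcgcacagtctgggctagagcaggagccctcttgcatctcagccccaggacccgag
Kcnj3 promoter, GRCm38.p6 chr2:55435720-55436019, plus strand: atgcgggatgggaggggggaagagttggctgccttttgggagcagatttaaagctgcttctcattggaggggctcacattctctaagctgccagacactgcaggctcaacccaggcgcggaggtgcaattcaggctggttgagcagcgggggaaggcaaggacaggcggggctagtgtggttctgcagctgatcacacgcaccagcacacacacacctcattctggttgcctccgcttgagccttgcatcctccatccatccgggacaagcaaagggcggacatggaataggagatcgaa
Kcnj9 promoter, GRCm38.p6 chr1:172329273-172329572, minus strand: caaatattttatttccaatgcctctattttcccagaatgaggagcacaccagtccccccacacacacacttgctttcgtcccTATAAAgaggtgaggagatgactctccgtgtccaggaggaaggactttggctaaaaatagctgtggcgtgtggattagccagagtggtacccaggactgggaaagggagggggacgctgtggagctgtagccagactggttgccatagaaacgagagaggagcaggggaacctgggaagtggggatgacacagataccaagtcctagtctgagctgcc
The Kcnt2 and Kcnh5 windows each held this core, the Kcnj9 window held the TATA letters, and the Kcnj3 window held none of the 3 motifs. RefSeq windows existed for 56 of the 79 genes, 80 windows in all. The core was in 20% of these and in 20.8% of all 32851 windows of the reference, and in 2 of the 19 windows of called-lower members (10.5%). The TATA letters were in 5% of Kcn windows, 13.6% of all windows and 5.26% of the windows of called-lower members. The AP-1 letters were in 2.5% of Kcn windows and 5.2% of all windows. These shares describe letters in a window and not sites of binding.

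Per kilobase of exon, the most abundant member was Kcnab2, a beta subunit of Kv1 channels, at 71.8 ± 8.51 FPKM in the libraries labelled BrapcKO and 68 ± 5.42 FPKM in Control (FPKM, the CPM divided by the kilobases of merged exons; mean ± SD, n = 5 each). Next came the strong inward rectifier Kcnj4 at 67.3 ± 7.85 FPKM in the libraries labelled BrapcKO and 66 ± 11.6 FPKM in Control. The A-type pore subunit Kcnd2 had 40.2 ± 1.02 FPKM in the libraries labelled BrapcKO and 41 ± 4.55 FPKM in Control, and its EF-hand partner Kcnip3 had 47.9 ± 11.3 FPKM in the libraries labelled BrapcKO and 32.2 ± 6.18 FPKM in Control. Kcna2, a Kv1 pore subunit of axons, had 34.7 ± 5.78 FPKM in the libraries labelled BrapcKO and 42.7 ± 10.04 FPKM in Control. Across both groups, 71 of the 79 genes had a mean of at least 1 FPKM, and a single value rested on 2 to 16088 reads. The order of Kcnd2, Kcnip3 and Kcna2 is within the spread over libraries.

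**Figure D1:**
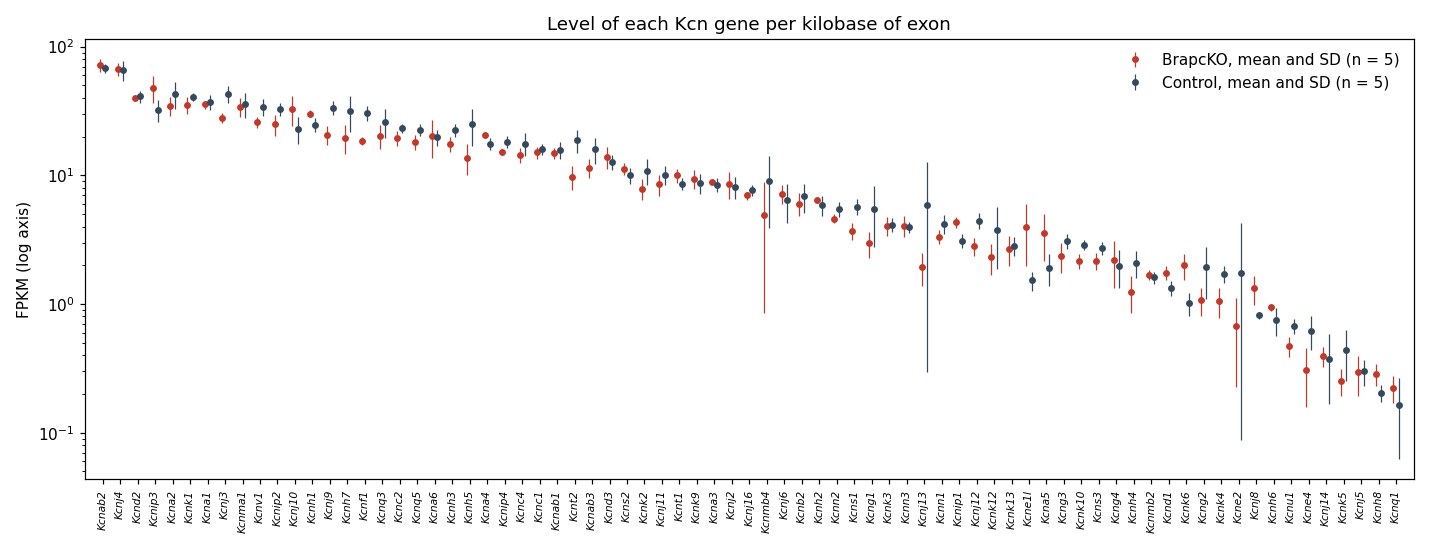
Level of 75 Kcn genes in FPKM on a log axis, as mean and SD over 5 libraries labelled BrapcKO (left point of each pair, red) and 5 Control libraries (right point, dark), ordered by the mean over all libraries. Kcnab2 and Kcnj4 have the highest levels in both groups, and where an SD exceeds its mean (Kcne2 and Kcnj13 in Control) the lower bar is cut short on the log axis.

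The comparison of the knockout with Control asked which potassium channel genes differ in cortex after conditional deletion of Brap. With an adjusted p under 0.05 in edgeR's quasi-likelihood test as the call, 19 of the 79 genes were lower in the libraries labelled BrapcKO, where 4.95% of all genes were lower, and 3 were higher, where 3.12% of all genes were higher. The members that fell included Kcna2, Kcnb2, Kcnc2, Kcnf1, Kcnh4, Kcnh5, Kcnh7, Kcnj3, Kcnj9, Kcnj12, Kcnk4, Kcnk10, Kcnq3, Kcnq5, Kcns1, Kcnt2 and Kcnv1. Those that rose were Kcna5, Kcnip1 and Kcnk6. The median log2 difference over the 79 genes was -0.18, and over all genes it was 0.01. Taken as ranges of CPM without a model, 10 members had all 5 libraries labelled BrapcKO below all 5 Control libraries, against 3.71% of all genes, and 5 had all above, against 3.12%. Within both title codes at once, every library labelled BrapcKO was below every Control library for 27 members, against 8.89% of all genes, and above for 7, against 7.43%.

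These counts depended on the terms and on single libraries. Without the title code as a term, 7 members were called lower and 2 higher, where 2.49% and 1.83% of all genes were; the calls that held included Kcnf1, Kcnj3, Kcnj9, Kcnj12, Kcns1, Kcnt2, Kcnip1 and Kcnk6. With a score of Y-linked reads (the mean log2 CPM of 4 genes) added to the code, 9 were called lower (Kcna2, Kcnf1, Kcnh5, Kcnh7, Kcnj3, Kcnq3, Kcnq5, Kcns1 and Kcnt2) and none higher, where 1.71% and 0.679% of all genes were and where edgeR's unadjusted p was under 0.05 for 5 higher members. Leaving out BrapcKO 21, the one knockout library of B2, left 7 lower and no higher call in edgeR (8 higher at an unadjusted p under 0.05), where 2.02% of all genes were lower and 0.82% higher. Leaving out Control 08 left 11 lower and 1 higher, where 2.55% and 1.36% of all genes were. Leaving out Control 09 left 9 lower and 2 higher, where 2.34% and 1.27% of all genes were. With the title code as a term, calls of Kcnf1, Kcnh5, Kcnq3 and Kcnt2 were among those that held whichever library was left out.

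**Figure D2:**
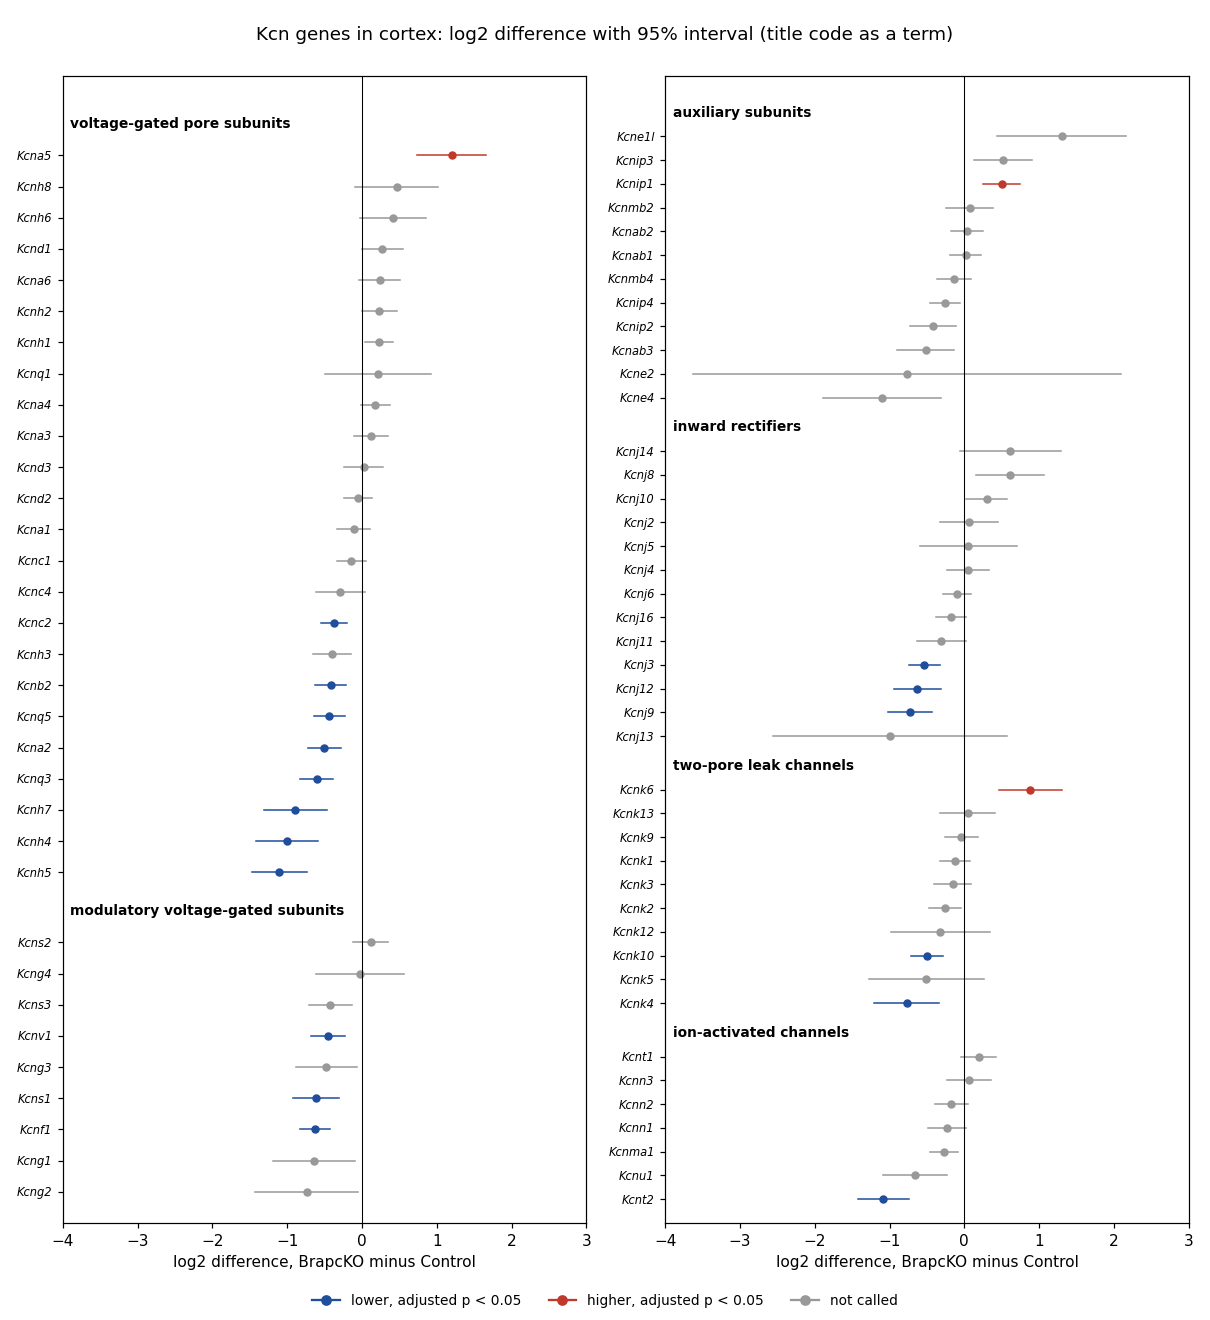
Log2 difference, BrapcKO minus Control, of 75 Kcn genes with the 95% interval, grouped by the role of the encoded subunit and ordered within each role. The 17 genes in blue were lower and the 3 in red higher at an adjusted p under 0.05, and the grey genes were not called.

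Of the 28 measured voltage-gated pore subunits, 10 fell and 1 rose, with a median log2 difference of -0.13. Here and for the other roles, the counts stand beside 4.95% of all genes called lower and 3.12% called higher. The falls were spread over the Kv1, Kv2, Kv3, KCNQ and ether-a-go-go families, and Kcnd1, Kcnd2 and Kcnd3, the A-type pore subunits of dendrites, were not called.

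The largest called fall was in Kcnh5, an ether-a-go-go type channel (GRCm38 chromosome 12, 74897220 to 75177332, minus strand; its promoter is printed above). Kcnh5 had 57.5, 70.5, 69.7, 41.7 and 39.1 CPM in libraries labelled BrapcKO, against 113, 149, 85.2, 97.1 and 62.7 CPM in Control (log2 difference -1.10, SE 0.17, adjusted p 0.0027). All knockout libraries but BrapcKO 05 and 06 were below every Control library, the Control values ran from 62.7 in Control 24 to 149 in Control 09, and both B2 and B1 values were lower in the knockout. With group as the only term, Kcnh5 had a log2 difference of -0.86 and was not called (adjusted p 0.072). Kcnh5 was also lower in B2 than in B1 (log2 difference -0.65, adjusted p 0.016), and so was Kcnh7. Kcnh7, which belongs to the ERG branch of slowly deactivating channels, had 296, 373, 381, 225 and 220.0 CPM in libraries labelled BrapcKO, against 573, 644, 420.4, 492 and 259.9 CPM in Control (log2 difference -0.90, SE 0.19, adjusted p 0.016). Its groups overlapped through Control 24, and its call was lost without Control 08, Control 09 or BrapcKO 21, with adjusted p up to 0.082. Kcnh4, of the ELK branch, was low in all libraries, 3.01 to 6.53 CPM in the libraries labelled BrapcKO, against 6.36 to 11.5 CPM in Control (log2 difference -1.0, SE 0.19, adjusted p 0.007), and its call was lost without Control 09 or BrapcKO 21 (adjusted p up to 0.06). The other 5 members of this family were not called. Among them Kcnh1, the most abundant, had a log2 difference of 0.22 (adjusted p 0.14) and Kcnh3 one of -0.40 (adjusted p 0.055).

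The KCNQ family carries the M-current. Kcnq3, one of its main subunits, fell, with 312, 368, 266, 332 and 206 CPM in libraries labelled BrapcKO, against 464, 504, 325, 352 and 276 CPM in Control (log2 difference -0.61, SE 0.10, adjusted p 0.0041). Control 22, 23 and 24 overlapped the knockout values, both groups were lower in B2, and within each title code the groups did not overlap; the call held whichever library was left out. With group as the only term the log2 difference of Kcnq3 was -0.37 and was not called (adjusted p 0.32). Kcnq5, another M-current subunit, had 144, 153, 147, 145 and 106 CPM in libraries labelled BrapcKO, against 166, 202, 163, 182 and 154 CPM in Control (log2 difference -0.44, SE 0.09, adjusted p 0.013), with BrapcKO 21 lowest, and its call was lost without Control 09 or BrapcKO 21 (adjusted p up to 0.12).

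Among Kv1 genes, Kcna2 fell and Kcna5 rose. Kcna2 had 449, 462, 466, 387 and 304 CPM in libraries labelled BrapcKO, against 619, 634, 447, 495 and 349.9 CPM in Control (log2 difference -0.50, SE 0.10, adjusted p 0.0091), lower in the knockout within each code, while Control 22 lay within the B1 knockout values and Control 24 below them. With group as the only term it was not called (adjusted p 0.39). Its call was lost without Control 09 or BrapcKO 21 (adjusted p up to 0.058). Kcna5, a Kv1 subunit known from vascular and immune cells as well as heart, had 7.73, 6.91, 7.32, 14.3 and 14.9 CPM in libraries labelled BrapcKO, against 3.71, 4.22, 7.34, 5.48 and 6.51 CPM in Control (log2 difference 1.20, SE 0.21, adjusted p 0.0051). BrapcKO 07 and 21 were near 14 to 15 CPM and stood apart from the other 3 knockout libraries, which overlapped Control 22; without BrapcKO 21 the call was lost (adjusted p 0.058). Kcna4, an A-type Kv1 subunit of axons, had 94.4 to 104 CPM in the libraries labelled BrapcKO, against 70.0 to 94.1 CPM in Control, with no overlap, but its log2 difference of 0.18 was not called (adjusted p 0.27). Kcna1 had 170.1 ± 12.1 CPM in the libraries labelled BrapcKO and 177 ± 24 CPM in Control (SD, n = 5) and was not called (adjusted p 0.59).

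Kcnb2, a delayed rectifier of cell bodies and proximal dendrites, fell. It had 115, 93.1, 90.5, 94.1 and 64.1 CPM in libraries labelled BrapcKO, against 134, 128, 86.8, 95.8 and 74.3 CPM in Control (log2 difference -0.42, SE 0.10, adjusted p 0.02). The groups overlapped across the title codes and not within them, and B2 was lower than B1 (log2 difference -0.62). The call was lost without Control 08, Control 09 or BrapcKO 21 (adjusted p up to 0.094). Among the Kv3 genes, which serve fast repolarisation, Kcnc2 fell, at 157, 134, 154, 136 and 113 CPM in libraries labelled BrapcKO, against 185, 176, 154, 164 and 156 CPM in Control (log2 difference -0.37, SE 0.08, adjusted p 0.012), and its call was lost without Control 08 or BrapcKO 21 (adjusted p up to 0.1). Kcnc1 and Kcnc4 had log2 differences of -0.14 and -0.29 and were not called. Of the remaining pore subunits, Kcna3, Kcna6, Kcnd1, Kcnd2, Kcnd3, Kcnh2, Kcnh6, Kcnh8 and Kcnq1 were not called and had log2 differences from -0.06 to 0.47.

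Of the 9 silent voltage-gated subunits, which join Kv2 pores and alter their gating, 3 fell (Kcnf1, Kcns1 and Kcnv1), and the median log2 difference was -0.48, with 8 of 9 values below 0. Kcnf1 had 89.8, 98.2, 81.2, 84.7 and 91.2 CPM in libraries labelled BrapcKO, against 130.5, 128, 141, 148 and 176 CPM in Control (log2 difference -0.63, SE 0.09, adjusted p 0.002). Every knockout library was below 99 CPM and every Control library above 127, and the call held whichever library was left out. Kcnv1 had 104, 118, 135, 112 and 124 CPM in libraries labelled BrapcKO, against 165, 191, 154, 145 and 128 CPM in Control (log2 difference -0.46, SE 0.11, adjusted p 0.02); BrapcKO 06 overlapped Control 24, and the call was lost without Control 08 or Control 09 (adjusted p up to 0.13). Kcns1 had 9.7, 10.9, 11.1, 7.62 and 10.8 CPM in libraries labelled BrapcKO, against 14.4, 17.1, 14.3, 18.3 and 13.2 CPM in Control (log2 difference -0.61, SE 0.14, adjusted p 0.019), without overlap, and its call was lost without Control 08, Control 09 or BrapcKO 21 (adjusted p up to 0.11). Of the 6 members not called, Kcns2 was the most abundant and had a log2 difference of 0.12, the only one above 0. Kcng2, Kcng3, Kcng4 and Kcns3 had log2 differences from -0.74 to -0.03. Kcng1 had 10.4, 13.2, 10.5, 15.3 and 17.4 CPM in libraries labelled BrapcKO, against 17.4, 19.8, 21.3, 19 and 46.6 CPM in Control, where 46.6 CPM in Control 24 stood far from the other Control libraries, and was not called (log2 difference -0.64, adjusted p 0.16).

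Of the 12 auxiliary subunits, 1 rose and the median log2 difference was -0.06. Kcnip1, an EF-hand protein that binds A-type channels and is common in interneurons, had 28.3, 23.6, 30.8, 24.8 and 26.6 CPM in libraries labelled BrapcKO, against 17.4, 19.9, 22.9, 18.4 and 17.3 CPM in Control (log2 difference 0.50, SE 0.12, adjusted p 0.021), all knockout libraries above all Control libraries. Its call was lost without Control 08, Control 09 or BrapcKO 21 (adjusted p up to 0.11). Its relative Kcnip2 had 91.6, 100.2, 58.2, 93 and 88.9 CPM in libraries labelled BrapcKO, against 106, 135, 108, 113 and 105 CPM in Control, without overlap in the opposite direction, and was not called (log2 difference -0.42, adjusted p 0.092). Of the 10 fits with a library left out, 1 called it, that without BrapcKO 06 (adjusted p 0.047, and up to 0.36 in the rest). Kcnip3 had a log2 difference of 0.51 (adjusted p 0.11). It was called in 1 of these 10 fits, that without BrapcKO 04 (adjusted p 0.025, and up to 0.53 in the rest). Kcnab1, Kcnab2, Kcnab3, Kcnip4, Kcnmb2 and Kcne4 had log2 differences from -1.10 to 0.07, with Kcne4 lowest at 0.819 ± 0.399 CPM in the libraries labelled BrapcKO and 1.65 ± 0.485 CPM in Control (SD, n = 5). Kcne1l, a single-pass partner, had 1.87, 9.6, 6.14, 8.5 and 4.53 CPM in libraries labelled BrapcKO, against 2.29, 2.11, 2.91, 1.89 and 2.58 CPM in Control, high in all knockout libraries but BrapcKO 04, and was not called (log2 difference 1.30, adjusted p 0.067). Kcne1l was called in 1 of the 10 fits with a library left out, that without BrapcKO 04 (adjusted p 0.0062, and up to 0.22 in the rest). Kcne1l lies on chromosome X. BrapcKO 04 had low Y-linked reads, unlike the other knockout libraries, and Control 23, with high Y-linked reads, had the lowest Control value. With the Y-linked score added to the title code, the log2 difference of Kcne1l was 0.73 (adjusted p 0.61). The part of sex in these values was not tested.

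Of the 13 inward rectifiers, 3 fell, among them 2 G-protein-gated subunits, and the median log2 difference was -0.09. Kcnj3, the GIRK subunit that most neuronal channels of this kind contain, had 149, 135, 159.5, 128 and 153 CPM in libraries labelled BrapcKO, against 206, 186, 246, 269 and 216 CPM in Control (log2 difference -0.53, SE 0.10, adjusted p 0.0055); every Control value was above every knockout value, and without BrapcKO 21 the call was lost (adjusted p 0.058). Kcnj9, its partner, had 98.2, 109, 78.2, 82.8 and 73 CPM in libraries labelled BrapcKO, against 125, 145, 133, 141 and 175 CPM in Control (log2 difference -0.73, SE 0.14, adjusted p 0.0068), also without overlap, and its call was lost without BrapcKO 21 (adjusted p 0.065). Antisense gene models overlap 31.1% of the exon bases of Kcnj3 and 4.01% of those of Kcnj9, and no source used here states whether strand was used in counting, so the 2 strands cannot be told apart. The same holds for 4.57% of the exon bases of Kcnh7, 3.08% of those of Kcnq5 and 1.48% of those of Kcnt2. Kcnj6, the third common neuronal GIRK subunit, was not called, with 54.8 ± 9.04 CPM in the libraries labelled BrapcKO and 49 ± 16.6 CPM in Control (SD, n = 5; log2 difference -0.09, 95% interval -0.28 to 0.09). Its means ran the other way, and with group as the only term the log2 difference was 0.16 (adjusted p 0.72), so its direction depended on the title code term. The strong rectifier Kcnj12 fell, at 7.93, 6.85, 6.28, 8.21 and 9.38 CPM in libraries labelled BrapcKO, against 11.8, 13.9, 10.2, 11.2 and 14 CPM in Control (log2 difference -0.63, SE 0.15, adjusted p 0.019), with no overlap, and its call was lost without Control 08 or Control 09 (adjusted p up to 0.12). Kcnj4 was not called (log2 difference 0.05, 95% interval -0.23 to 0.33). Kcnj10, the main inward rectifier of astrocytes, had a log2 difference of 0.30 (adjusted p 0.19) and was not called. Kcnj8, a pore of ATP-sensitive channels in vascular and mural cells, had 2.83 to 4.87 CPM in the libraries labelled BrapcKO, against 1.93 to 2.21 CPM in Control with no overlap, and was not called (log2 difference 0.61, adjusted p 0.1). Kcnj2, Kcnj5, Kcnj11, Kcnj14 and Kcnj16 had log2 differences from -0.31 to 0.62.

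Of the 10 leak channels with tandem pore domains, 2 fell and 1 rose, with a median log2 difference of -0.21. Kcnk10 and Kcnk4 encode mechanosensitive and lipid-sensitive channels. Kcnk10 had 22, 20.8, 16.4, 19.4 and 16.4 CPM in libraries labelled BrapcKO, against 27.4, 27.3, 23.7, 22.6 and 25.4 CPM in Control (log2 difference -0.50, SE 0.10, adjusted p 0.0093), with no overlap, and its call was lost without BrapcKO 21 (adjusted p 0.064). Kcnk4 had 6.43, 5.11, 4.49, 3.03 and 4.36 CPM in libraries labelled BrapcKO, against 7.38, 9.16, 6.2, 8.45 and 7.01 CPM in Control (log2 difference -0.77, SE 0.20, adjusted p 0.033). The call was lost without Control 08, Control 09, Control 23, BrapcKO 06 or BrapcKO 21 (adjusted p up to 0.15). For this gene 13.1% of its exon bases lie in Catsperz on the same strand, so its reads may be shared. Kcnk6, a channel linked to potassium efflux in macrophages, rose, at 7.88, 11.7, 7.04, 7.92 and 7.05 CPM in libraries labelled BrapcKO, against 3.61, 5.4, 4.33, 4.54 and 3.24 CPM in Control (log2 difference 0.88, SE 0.19, adjusted p 0.014); the lowest knockout library, at 7.04 CPM, was above the highest Control library, at 5.4. BrapcKO 05 was far above the rest of its group, and the call was lost without Control 08 or BrapcKO 21 (adjusted p up to 0.08). Kcnk1, the most abundant leak channel, had a log2 difference of -0.12 and was not called (95% interval -0.32 to 0.08). Kcnk2, Kcnk3, Kcnk5, Kcnk9, Kcnk12 and Kcnk13 had log2 differences from -0.51 to 0.04.

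Of the 7 channels opened by calcium, sodium or alkaline pH, 1 fell. Kcnt2, a sodium-activated channel (GRCm38 chromosome 1, 140246158 to 140612067, plus strand; the RefSeq start behind its printed promoter lies upstream of this GENCODE start), had 69.6, 78.2, 84, 51.4 and 54.1 CPM in libraries labelled BrapcKO, against 144, 154, 126, 137 and 85.4 CPM in Control (log2 difference -1.08, SE 0.16, adjusted p 0.0018). The highest knockout library, at 84 CPM in BrapcKO 06, lay just below the lowest Control library, at 85.4 in Control 24, and the other 4 Control libraries were at 126 CPM or more. The call held whichever library was left out. Its paralog Kcnt1 was not called (log2 difference 0.19, adjusted p 0.34), nor was Kcnma1, the large-conductance calcium-activated pore, at 577 ± 95.3 CPM in the libraries labelled BrapcKO and 609 ± 138 CPM in Control (SD, n = 5; log2 difference -0.27, adjusted p 0.086). Kcnn2, a small-conductance channel, had a log2 difference of -0.17 (adjusted p 0.36), and Kcnn1 and Kcnn3 had log2 differences of -0.23 and 0.07. Kcnu1, a channel of sperm, was low in cortex, 1.34 to 2.1 CPM in the libraries labelled BrapcKO, against 2.08 to 3.05 CPM in Control, and was not called (log2 difference -0.66, adjusted p 0.06).

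**Figure D3:**
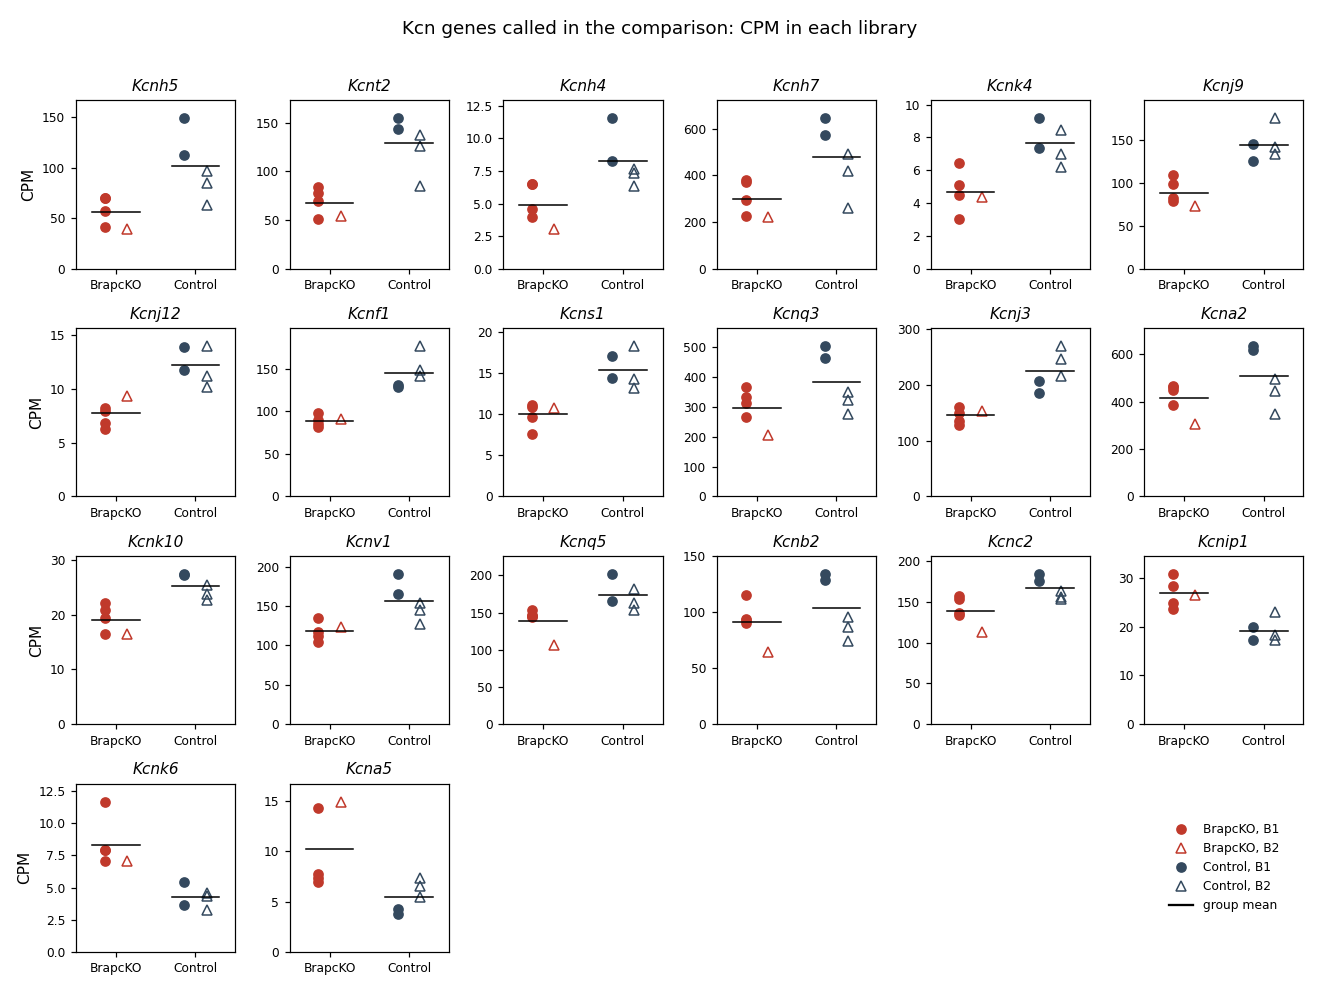
CPM of 20 called Kcn genes in every library, with libraries labelled BrapcKO on the left and Control on the right, filled points for title code B1, open triangles for B2, and a line at each group's mean. In each of the 20 panels the groups are ordered the same way within B1 and within B2, and several, such as Kcnq3 and Kcnb2, overlap when pooled. The genes were called on these same libraries with the code as a term, which favours such an order. BrapcKO 21 is the only knockout library of B2.

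Levels of the called members were set beside those of the family. Of the 26 most abundant members, from 16.8 to 69.9 FPKM, 11 were called, all of them lower, against 4 of the middle 27 and 7 of the lowest 26. The median level was 20.3 FPKM for members that fell, 2.74 FPKM for the 3 that rose, 7.32 FPKM for members not called and 8.22 FPKM for the family. More abundant genes are counted more precisely, and the part of precision in this split was not tested. Members that fell spanned a median of 94.2 kb of genome, against 37.1 kb for members not called and 26.1 kb for all genes.

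The 2 pairs of genotypes were compared in one fit with 4 genotype groups and the title code. For flox/flox Cre+ minus flox/flox Cre- libraries, 1 member was called, Kcnj12, which was lower by a log2 difference of -1.07 (adjusted p 0.027), where 0.399% of all genes were lower and 0.336% higher. For flox/ko Cre+ minus flox/wt Cre-, 12 members (among them Kcna2, Kcnb2, Kcnf1, Kcnh5, Kcnh7, Kcnj3, Kcnj9, Kcnq3, Kcnq5, Kcns1 and Kcnt2) were lower and 1 (Kcna5) higher, where 3.08% and 1.77% of all genes were. Both flox/flox Cre+ libraries had high and both flox/flox Cre- libraries low Y-linked reads, so sex and genotype cannot be told apart in that pair. With the Y-linked score added to the comparison of BrapcKO with Control, Kcnj12 had a log2 difference of -0.55 (adjusted p 0.21). The first pair has 2 libraries against 2 and the second 3 against 3, so the counts of calls rest on different numbers of libraries. All 22 members called over both pairs kept their direction in each pair, which is little support because they were called on the same libraries. The difference between the pairs themselves was called for 0 of 14276 genes in edgeR. At an unadjusted p under 0.05 it was 7 of the 79 members and 873 of all genes. The log2 difference of Kcnt2 was -0.69 in flox/flox pairs and -1.33 in the flox/ko against flox/wt pair, and that of Kcnh7 was -0.45 in flox/flox pairs and -1.18 in the other pair.

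**Figure D4:**
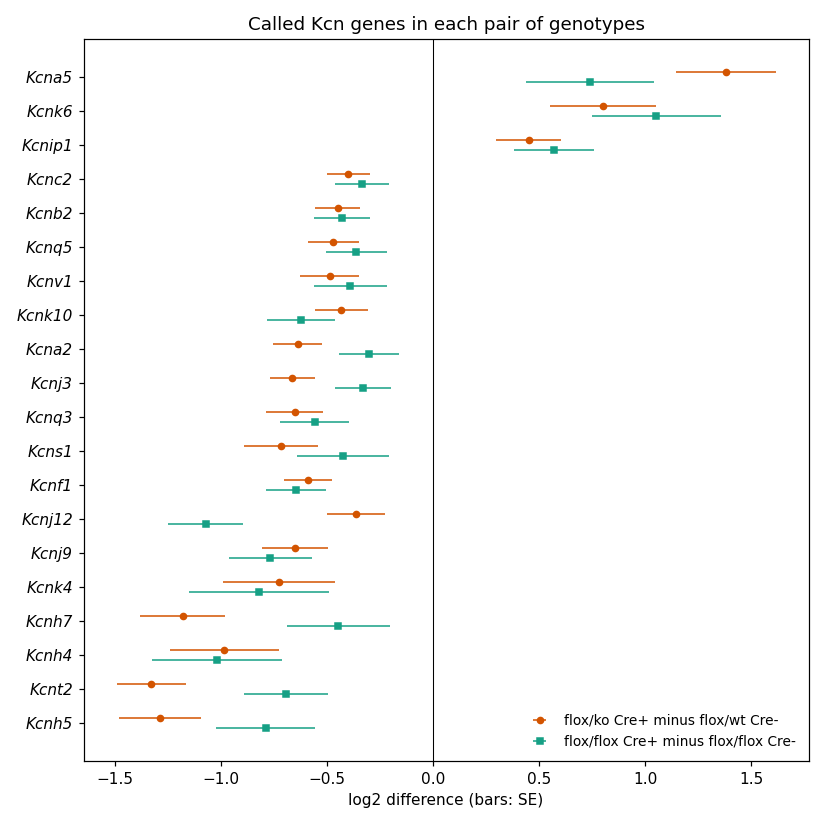
Log2 difference and SE of 20 called Kcn genes in each pair of genotypes, flox/ko Cre+ minus flox/wt Cre- (orange circles, 3 libraries each) and flox/flox Cre+ minus flox/flox Cre- (green squares, 2 libraries each). All points of the 3 genes that rose lie right of 0 and those of the 17 that fell lie left of 0, and Kcnj12 is the member for which the flox/flox pair shows the larger fall by the widest gap.

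Between title codes B2 and B1, 12 Kcn genes were lower and 5 higher at an adjusted p under 0.05, or 17 of 79, while 25.1% of all genes were called. Among the 22 members called between the groups, 9 also differed by code, among them Kcna2, Kcna5, Kcnb2, Kcnc2, Kcnh4, Kcnh5, Kcnh7 and Kcnq3. The largest difference by code was in Kcnmb4, a beta subunit of the calcium-activated channel, which had 11.9, 10.4, 8.59, 10.1 and 40.0 CPM in libraries labelled BrapcKO, against 12.3, 10.7, 40.6, 42.9 and 44.4 CPM in Control. It was at 40 to 44.4 CPM in all B2 libraries, and at 8.59 to 12.3 CPM in all B1 libraries. Antisense gene models overlap 31.5% of its exon bases. Between BrapcKO and Control, Kcnmb4 was not called (log2 difference -0.14).

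Kcnj13 and Kcne2 carried high values in 1 Control library. Kcnj13, a channel of choroid plexus and retinal pigment epithelium, had 3.01, 2.36, 2.03, 1.56 and 3.33 CPM in libraries labelled BrapcKO, against 5.24, 1.59, 2.18, 6.07 and 22.5 CPM in Control, and Kcne2, which partners channels of the choroid plexus, had 2.33, 0.899, 1.27, 0.147 and 1.31 CPM in libraries labelled BrapcKO, against 2.49, 0.154, 0.0693, 1.96 and 10.7 CPM in Control. Control 24 was highest for both. A set of 7 choroid plexus markers, chosen after these values were seen, summed to 139.7 to 712 CPM in the libraries labelled BrapcKO and 52 to 2370.0 CPM in Control, highest in Control 24, and none of the 7 was called (0 at an unadjusted p under 0.05 in edgeR). Neither Kcn gene was called either. The antisense gene Gigyf2 overlaps 49.1% of the exon bases of Kcnj13, so the 2 strands cannot be told apart there.

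Of 36 measured genes in a list of proteins that assemble with or steer potassium channels, 5 were lower, where 4.95% of all genes were, and 1 was higher, where 3.12% were, with a median log2 difference of -0.13. Cntnap1, which sits at paranodes beside Kv1 channels, fell (log2 difference -0.43, SE 0.07, adjusted p 0.0033), as did Dlg1, a scaffold of Kv1 and Kir channels (log2 difference -0.41, SE 0.08, adjusted p 0.0073). Abcc8, the sulfonylurea receptor of ATP-sensitive channels, fell (log2 difference -0.85, SE 0.15, adjusted p 0.0053), as did Lrrc55, a subunit of the large-conductance channel (log2 difference -0.65, adjusted p 0.021), and Amigo1, a partner of Kv2 channels (log2 difference -0.26, adjusted p 0.045). Hcn4, a cation channel opened by hyperpolarisation, rose, at 10.9, 13.7, 14, 16.8 and 18.6 CPM in libraries labelled BrapcKO, against 7.68, 6.89, 7.93, 7.19 and 10.4 CPM in Control (log2 difference 1.00, SE 0.15, adjusted p 0.002). Of 15 genes of potassium transport, 3 were lower and 1 higher, beside the same shares of all genes, with a median log2 difference of -0.0027. Fxyd7, a regulator of the sodium-potassium pump, fell (log2 difference -1.13, SE 0.22, adjusted p 0.0083), as did Slc12a5, the neuronal potassium-chloride exporter (log2 difference -0.38, adjusted p 0.02), and Fxyd6, another regulator, rose (log2 difference 0.62, adjusted p 0.035). The calls of Cntnap1 and Hcn4 held whichever library was left out. Of the others named here, Abcc8 and Fxyd7 were lost without BrapcKO 21, Dlg1 without Control 09, Slc12a5 without either of these, and Lrrc55 without these or Control 08 (adjusted p 0.051, 0.064, 0.052, up to 0.16 and up to 0.086). Fxyd6 was called with only 4 of the 10 libraries left out in turn, and Amigo1 with 1 of them (adjusted p up to 0.21 and 0.18); their losses included Control 08, Control 09 and BrapcKO 21.

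Markers of cell types and states moved between the groups beside the channels. In the same comparison, 3.12% of all genes were called higher and 4.95% lower. Over 7 activity-induced genes the summed level was 266.8 to 399 CPM in the libraries labelled BrapcKO and 804 to 1434 CPM in Control, and all 7 were lower. Reactive astrocyte markers summed to 453 to 1471 CPM in the libraries labelled BrapcKO and 176 to 219 CPM in Control, with 4 of 6 higher. Markers of microglia summed to 289 to 752 CPM in the libraries labelled BrapcKO and 194 to 258 CPM in Control, with 1 of 7 higher, C1qa. Inhibitory neuron markers summed to 1018 to 1671 CPM in the libraries labelled BrapcKO and 801 to 919 CPM in Control, with 4 of 6 higher. Another of these 6 went the other way, with 1 lower at an unadjusted p under 0.05 in edgeR. Markers of striatal neurons summed to 629 to 1386 CPM in the libraries labelled BrapcKO and 354 to 848 CPM in Control, with 5 of 8 higher. Excitatory neuron markers summed to 2171 to 2794 CPM in the libraries labelled BrapcKO and 2383 to 3065 CPM in Control, with 2 of 5 lower (Camk2a and Neurod6). At an unadjusted p under 0.05 in edgeR, 3 of these 5 were lower and 1 was higher. Oligodendrocyte markers summed to 2344 to 3230.0 CPM in the libraries labelled BrapcKO and 3183 to 4410.0 CPM in Control, with none called by edgeR (2 of 6 lower at an unadjusted p under 0.05). Astrocyte markers (1 of 7 higher, Gfap) and oligodendrocyte precursor markers (1 of 3 higher, Vcan) each had 1 call. Gfap is also among the reactive astrocyte markers, so these 2 lists are not separate. Endothelial and pericyte markers had none, with 1 of 5 and 1 of 4 at an unadjusted p under 0.05 in edgeR. Y-linked genes, with none called, summed to 0.156 to 288 CPM in the libraries labelled BrapcKO and 0 to 263 CPM in Control. Several of these marker calls also rested on Control 08, Control 09 or BrapcKO 21, while those of Fos, Arc, Egr1, Egr2, Npas4, Gad2, Penk, Rgs9, Vim and Osmr held whichever library was left out. None of the marker genes was at 0 in every library, and the part of these changes in the channel values was not tested. In such bulk RNA, fewer cells of a type and less RNA per cell cannot be told apart.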

How the data were processed

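Per the labels' protocols, RNA was taken from frozen cortex with Trizol, treated with DNase and depleted of ribosomal RNA before library construction. The authors deposited unnormalised counts of reads for 14276 genes in each library. The submitters' processing notes list FastQC, featureCounts from Subread, edgeR and DESeq2, without versions, order, settings or use of strand. The chi-square per degree of freedom over genes was at least 7.15 for every pair of libraries in a group, so all 10 libraries were kept as separate.

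Symbols and coordinates came from GENCODE M21 (GRCm38), which held 14271 of the identifiers (5 did not match). The quasi-likelihood test of edgeR 4.0.16 in R 4.3.3 was run on all genes (robust, TMM scaling, group plus title code; the default low-count filter removed no gene), with Benjamini-Hochberg adjustment over all genes and 95% intervals from the fit. The fit with these settings was also run on simulated counts, and the alternatives were not. Alternatives were DESeq2 1.42.0, limma-voom 3.58.1 with and without quality weights, other scalings and filters, a Y-linked score (mean log2 CPM of 4 Y-linked genes), each library left out, and each title code alone. Total counts of 17188901 to 28991874 per library set the precision, and intervals cover the spread between these libraries only.

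The named members are those called, the 12 of smallest p, those whose groups do not overlap, and the most abundant of each subfamily; further members were named within their subfamily. The members, marker lists and partner and transport lists were chosen with earlier results of these data known. Xist and the identifiers without a match were not analysed here. Some members that the rule names are not reported here and not drawn in the figures; counts over the family include them.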

Additional observations from a re-analysis of the deposited data

Results flagged for a closer look

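In 9 of 78 groups of 5 libraries tested among the named members, 1 library stood far from the other 4 on the CPM scale. Chance alone flags about 1 in 20 such groups. BrapcKO 21, the knockout library of title code B2, was apart in 2 of them: Kcnmb4 stood at 40.01 CPM there and 8.59 to 11.9 CPM in the other knockout libraries, and Kcnq5 stood at 106 CPM against 143.9 to 153 CPM. For Kcnmb4 the 3 Control libraries of B2 were at 40.6 to 44.4 CPM as well.

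Control 24 was apart for 3 members. Kcnd2 was at 170.2 CPM there and 218.8 to 229.6 CPM in the other Control libraries, Kcng1 at 46.6 CPM against 17.4 to 21.3 CPM, and Kcnj4 at 185.6 CPM against 123.9 to 136.1 CPM. The summed choroid plexus markers were highest in the same library.

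Of the rest, Kcnk6, which was called higher, stood at 11.7 CPM in BrapcKO 05 and 7.04 to 7.92 CPM in the other knockout libraries. Kcnj8 was at 4.87 CPM in BrapcKO 04 against 2.83 to 3.15 CPM. Kcnip2 was apart in both groups, at 58.2 CPM in BrapcKO 06 against 88.9 to 100.2 CPM, and at 134.6 CPM in Control 09 against 105.3 to 113 CPM. The part of any of these libraries in a difference between the groups is given only by leaving it out.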

How the results depend on the processing

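All 22 calls kept their direction in every alternative run, and 22 of 22 stayed called under DESeq2, limma-voom with or without quality weights, every scaling, both filters and the non-robust fit. With group as the only term, 617 genes and 7 lower members were called. With title code and Y-linked score, 341 genes, 0 higher and 9 lower members were called, and with the Y-linked score in place of the code, 91 genes, 0 higher and 2 lower (edgeR, 5 and 6 higher members at an unadjusted p under 0.05). Within B1 alone, 416 genes, 0 higher and 8 lower members were called (7 higher at an unadjusted p under 0.05). DESeq2 called 6 higher members, and quality weights called 2039 genes and 5 higher members. Leaving out 1 library at a time gave 406 to 1454 genes, 0 to 5 higher and 7 to 23 lower members, and a median from -0.20 to -0.16. Over these settings and the values within B2 alone, 23 of the 79 members changed sign at least once, 0 of them called. Among the members named for their levels, the reversals were Kcnab2 at -0.0004 with code and Y-linked score and -0.0319 to 0.13 with 1 library left out, Kcnj4 at -0.0385 to 0.1874 and Kcns2 at -0.0179 to 0.1737 with 1 library left out, Kcns2 at -0.012 within B1, and Kcnma1 at 0.0068 with the Y-linked score alone. Within B2 alone, Kcnab2 was at -0.14, Kcnj4 at -0.19, Kcnd2 at 0.07 and Kcnk1 at 0.05. Among other members, Kcnj6 was at 0.16 and Kcnk9 at 0.11 with group as the only term. The cause was not tested. B2 holds 1 knockout library, so it gives a value without a test. With the longest transcript as the length, 18 of 20 subfamilies kept their most abundant member. No paired analysis was possible because the groups share no replicate number.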
